A study of Mus musculus with 2 samples.

Results

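The genes described are 10 that act in cellular iron handling and heme turnover, measured in RNA from whole mouse kidneys, out of 45777 genes in the deposited count table. They were taken by symbol and comprised Tfrc and Slc11a2 for iron uptake, Fth1, Ftl1 and Ncoa4 for storage, Slc40a1 for export, Aco1 and Ireb2 for regulation, and Alas1 and Hmox1 for the making and breaking of heme. All 10 were found, and all 10 passed the minimum of 1 CPM (counts per 1e+06 reads, scaled by the TMM method) that 15129 genes reached in either library. The study compared 2 libraries, 1 of control animals and 1 of animals carrying a conditional Inmt knockout (CKO) in the proximal tubule, where most filtered solute is taken back. Inmt encodes indolethylamine N-methyltransferase, which methylates tryptamine and other small amines. Both groups ate standard chow and received no treatment. The labels give no strain, sex, age, control genotype, number of pooled animals or promoter driving the recombinase. Each group has 1 library, so no difference below has a replicate check or a test, and the intervals cover counting error only and leave out the spread between animals.

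Cells take up iron bound to transferrin through the transferrin receptor, and ferrous iron leaves the endosome through the transporter DMT1. Ferritin, a shell of heavy and light chains, stores iron that is not used, and ferroportin is the known cellular iron exporter. The cytosolic proteins IRP1 and IRP2 bind a hairpin called the iron-responsive element (IRE) when iron is scarce: on a hairpin in the 5′ UTR they block translation, and on hairpins in the 3′ UTR of the transferrin receptor mRNA they slow its decay. The proximal tubule takes up filtered iron carriers, and heme oxygenase 1, which opens the heme ring and frees its iron, is known as an inducible protective enzyme of the injured tubule.

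The hairpins are what 5 of the 10 transcripts share, so they are printed here from the GENCODE M21 transcripts (GRCm38, the assembly of mm10), 5′ to 3′, with the 6-base loop in capitals. The search took the letters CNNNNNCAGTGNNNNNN on the transcript strand, with the 5 bases after the first C pairing with the last 5 (G-U pairs allowed).
Tfrc, hairpin 1 (chr16:32631220-32631247, + strand): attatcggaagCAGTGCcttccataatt
Tfrc, hairpin 2 (chr16:32631599-32631626, + strand): attatcgggagCAGTGTcttccataatg
Tfrc, hairpin 3 (chr16:32631664-32631691, + strand): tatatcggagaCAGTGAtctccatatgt
Tfrc, hairpin 4 (chr16:32631711-32631738, + strand): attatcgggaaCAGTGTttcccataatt
Slc11a2 (chr15:100395153-100395180, − strand): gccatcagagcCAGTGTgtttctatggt
Fth1 (chr19:9982733-9982760, + strand): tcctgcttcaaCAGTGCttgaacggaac
Ftl1 (chr7:45459779-45459806, − strand): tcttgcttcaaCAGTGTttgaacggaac
Slc40a1 (chr1:45925465-45925492, − strand): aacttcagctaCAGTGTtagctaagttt

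The 4 Tfrc hairpins that the search found lie in the 3′ UTR in exon 19, the last exon. A hairpin with other letters or fewer than 4 pairs would be missed. The Slc11a2 hairpin lies in the 3′ UTR in the last exon, 16, and those of Fth1, Ftl1 and Slc40a1 in the 5′ UTR in exon 1. All 5 stem pairs formed in each of them except that of Slc11a2, where 4 of 5 did. The letters with 5 pairs occurred in 21 of 20240 annotated 5′ UTRs (0.104%; median length 182 bases) and in 117 of 20772 3′ UTRs (0.563%; median length 943 bases). Tfrc was the 1 gene whose 3′ UTR held 2 or more. With 4 pairs allowed, 3.9% of 3′ UTRs held a match. The heavy- and light-chain hairpins of ferritin were identical at 26 of 28 bases, whereas each shared 13 of 28 with that of Slc40a1. Hmox1, Aco1, Ireb2, Ncoa4 and Alas1 held no match in their UTRs. The Tfrc hairpins were in 1 of 3 coding transcripts, the Slc11a2 hairpin in 1 of 6, the Slc40a1 hairpin in 1 of 4, that of Ftl1 in 1 of 2 and that of Fth1 in 4 of 5, and a count per gene does not separate transcripts with the hairpin from those without it.

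Counted reads came to 33618076 for the control and 38136616 for CKO. Inmt had 17678 reads in the control against 5283 in the CKO library, 4.73-fold lower (95% counting interval 4.59 to 4.88). Genes at least 2-fold higher in the CKO library outnumbered those at least 2-fold lower, at 10.3% against 1.66% of expressed genes. Scaling by total counts in place of TMM moved the median log2 ratio of expressed genes from 0.01 to 0.32. Small differences below are therefore also given relative to that median. That subtraction removes most of a change in scaling, so agreement between scalings after it is no separate check. Proximal tubule markers were present in both libraries, as a kidney sample requires, with all 14 expressed. Their summed level was 32386 CPM in the control against 17856 in the CKO library. Acsm2, the largest part of that sum, had 10414 and 4654 CPM. The median log2 ratio of the 14 was -0.62, and 4 of them were at least 2-fold lower, where 1.66% of expressed genes were. Injured tubule markers summed to 592 and 5600 CPM, and 11 of 12 were at least 2-fold higher. In bulk tissue, fewer cells of a type and less RNA per cell cannot be told apart, and the part of these markers in the results below was not tested.

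Past the 2-fold limit, 1 of the 10 genes, Tfrc, was lower and none (0) was higher, where 1.66% and 10.3% of all expressed genes were. All 10 also had 10 CPM or more, and of the 10189 genes at that level 1.79% were lower and 5.62% higher. A single gene past the limit is too few to set the share of these 10 apart from those backgrounds. The 10 log2 ratios of CPM + 0.5, CKO over control, ran from -1.15 for Tfrc to 0.33 for Slc40a1. Their median was -0.30 against 0.01 for all expressed genes and -0.08 for all genes with 10 CPM or more. Below 0 were 8 of the 10, where 7456 of all 15129 expressed genes were. Above 0 were 2, Ftl1 and Slc40a1. Each gene had at least 1451 reads in each library, and on the TMM scale no counting interval of a ratio held 1. The intervals move with the scaling. With DESeq2 size factors the log2 ratio of Ftl1 was 0.02, and with total counts that of Ireb2 was -0.04. The 10 genes together made up 0.552% of the control's reads (0.549 to 0.554, exact interval) against 0.547% in CKO (0.544 to 0.549).

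**Figure D1:**
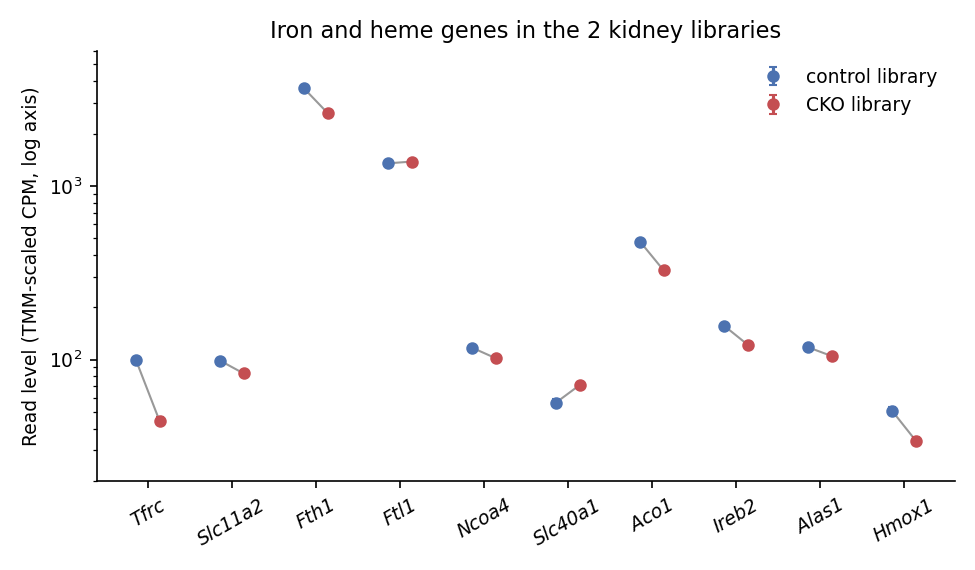
Level of the 10 genes in the control (blue) and CKO (red) library, in TMM-scaled CPM on a log axis, 1 point per library with its exact Poisson 95% interval, which is mostly smaller than the point. Tfrc has the steepest line, from 99.1 to 44.3 CPM, Slc40a1 goes up from 56.5 to 71.3, and the 2 ferritin genes lie far above the other 8.

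Among the uptake genes, Tfrc (NCBI gene 22042, chromosome 16, 32608896 to 32632794, GRCm38) encodes transferrin receptor 1. It had 2984 reads in the control against 1888 in the CKO library, although the CKO library was the deeper one. That is 99.1 CPM (95.6 to 103, exact Poisson 95% interval) in the control against 44.3 CPM (42.4 to 46.4) in the CKO library, 2.24-fold lower (2.11 to 2.37). Counting up from the lowest log2 ratio of the 15129 genes, Tfrc, at -1.15, was number 155. It was past 2-fold under TMM and DESeq2 size factors and in the authors' normalized table, but not when total counts set the scale (-0.84), nor with total counts lacking the mitochondrial and 50 most abundant genes (-0.96), nor in the authors' FPKM (-0.81) and TPM (-0.73). In those settings the median of all expressed genes lay between 0.20 and 0.40. Relative to the median of expressed genes, it was between -1.17 and -1.08 in all 9 settings run.

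Tfrc is also a gene of young red cells, so erythroid transcripts are given beside it. The 4 adult globin genes (Hba-a1, Hba-a2, Hbb-bs and Hbb-bt) made up 0.0448% of the control's reads (0.0441 to 0.0455) against 0.0212% in CKO (0.0207 to 0.0217). Hba-a1, an alpha-globin gene, was 2.67-fold lower (2.54 to 2.80), and the split of reads with its near copy Hba-a2 is uncertain. Of 12 erythroid markers in the table, 6 were expressed. At least 2-fold lower were 4, the same 4 globin genes, where 1.66% of all expressed genes were. At least 2-fold higher was 1, Epb42, on 10 against 77 reads, where 10.3% of all expressed genes were. Alas2, the erythroid heme synthesis gene, had 156 and 130 reads, 1.70-fold lower (1.34 to 2.16), and Gata1 and Rhag had 0 in both libraries. The summed erythroid level, nearly all of it from the globin genes, was 506 CPM in the control against 195 in the CKO library. Whether Tfrc reads came from blood in the tissue was not tested.

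Slc11a2 (NCBI gene 18174, chromosome 15, 100387898 to 100424209) encodes DMT1, the proton-coupled importer of ferrous iron. It had 2967 and 3542 reads, or 98.5 CPM in the control against 83.2 CPM in the CKO library, 1.18-fold lower (1.13 to 1.24). The log2 ratio of -0.24 turned positive with total counts and in the authors' FPKM and TPM, and it stayed below the median of expressed genes in all 9 settings. Slc11a2 overlaps the lncRNA gene Gm5475, which had 0 and 9 reads. Tfrc and Slc11a2 had nearly equal reads in the control, against 1.88 reads of Slc11a2 per read of Tfrc in the CKO library.

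The wider uptake list held genes on both sides. Of 13 expressed genes, 3 were at least 2-fold higher and 1, Tfrc, at least 2-fold lower, where 10.3% and 1.66% of all expressed genes were. The list's median of 0.06 turned to -0.24 with a minimum of 10 CPM. Steap4, a metalloreductase gene, had 14 and 147 reads, 7.42-fold higher (4.29 to 13.9). Tfr2, the second transferrin receptor gene, had 11 and 80 reads, 5.14-fold higher (2.73 to 10.7). Per length it was far below Tfrc in the CKO library, at 0.524 FPKM against 8.83. Trf, which encodes transferrin, had 294 and 967 reads, 2.33-fold higher (2.04 to 2.66). The most abundant gene of the list per length was Lrp2, the endocytic receptor megalin of the proximal tubule, with 107706 and 103289 reads and a log2 ratio of -0.56.

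Ferritin made up most of the reads of the 10 genes. Fth1 (NCBI gene 14319, chromosome 19, 9980600 to 9985111) encodes the heavy chain, which oxidizes ferrous iron for storage. It had 109589 and 111907 reads, or 3640 CPM (3618 to 3661) in the control against 2628 CPM (2613 to 2644) in the CKO library, a ratio of 0.722 (0.716 to 0.728). Ftl1 (NCBI gene 14325, chromosome 7, 45457944 to 45459886) encodes the light chain, which helps the iron core form. It had 40596 and 58757 reads, or 1348 CPM (1335 to 1361) in the control against 1380 CPM (1369 to 1391) in the CKO library, a ratio of 1.02 (1.01 to 1.04). The heavy chain was thus lower and the light chain nearly level on this scale, and on the total-count scale their log2 ratios were -0.15 and 0.35.

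The balance between the 2 chains within a library does not depend on scaling. Per length, in the authors' FPKM, the heavy to light ratio was 2.78 in the control against 1.96 in the CKO library. From the reads, the CKO ratio was 0.706 times that of the control (0.695 to 0.716). Together the 2 genes took nearly the same share of all reads, 0.447% in the control (0.444 to 0.449) and 0.448% in the CKO library (0.445 to 0.450). Fth1 alone went from 0.326% to 0.293% and Ftl1 from 0.121% to 0.154%. By mean FPKM, Fth1 ranked 14 and Ftl1 23 among expressed genes.

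Light-chain reads can be shared with near copies. The pseudogenes Ftl1-ps1 and Ftl2-ps had 2727 and 1927 reads in the control against 3831 and 2683 in the CKO library, with log2 ratios of -0.01 and -0.02, and Ftl1-ps2 had 4 and 3 reads. Adding all of them to Ftl1 gave a log2 ratio of 0.03, the same as for Ftl1 alone. The gene of mitochondrial ferritin, Ftmt, had 0 reads in both libraries. Hmox2, named below, and these relatives of Ftl1 were chosen for naming after their values were seen.

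Ncoa4 (NCBI gene 27057, chromosome 14, 32159879 to 32179855) encodes the receptor that carries ferritin to the lysosome for breakdown. It had 3522 and 4332 reads, or 117 CPM in the control against 102 CPM in the CKO library, a ratio of 0.870 (0.832 to 0.910). Its log2 ratio of -0.20 turned positive with total counts and in the authors' FPKM and TPM. Against Fth1 it was 1.20-fold higher (1.15 to 1.26) and against Ftl1 1.18-fold lower (1.12 to 1.23), so it lay between the 2 chains. The storage list had 11 expressed genes and a median of -0.13. None (0) was past 2-fold in either direction, where 10.3% of all expressed genes were higher and 1.66% lower. Pcbp1, an iron chaperone gene that loads ferritin, had 7393 and 7931 reads and a log2 ratio of -0.40, Pcbp3 one of -0.49 and Timd2, a ferritin receptor gene, one of -0.22.

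Slc40a1 (NCBI gene 53945, chromosome 1, 45908070 to 45926532), which encodes ferroportin, had the highest ratio of the 10. It had 1702 and 3035 reads, or 56.5 CPM (53.9 to 59.3) in the control against 71.3 CPM (68.8 to 73.9) in the CKO library, 1.26-fold higher (1.19 to 1.34). The log2 ratio of 0.33 ranked 4338 from the highest of 15129, within the middle of all genes, whose upper quartile was 0.42. It was above 0 in all 9 settings and from 0.32 to 0.37 above the median of expressed genes.

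Of the 11 gene pairs compared within each library, the exporter against the transferrin receptor differed most. These 2 genes had the highest and the lowest ratio of the 10, so this follows from the ratios above. There were 0.570 reads of Slc40a1 per read of Tfrc in the control against 1.61 in the CKO library, a 2.82-fold higher ratio (2.59 to 3.06). Macrophages also express ferroportin, and of 13 expressed macrophage markers 12 were at least 2-fold higher, where 10.3% of all expressed genes were. Their summed level was 79.8 CPM in the control against 385 in the CKO library. Lyz2, the myeloid lysozyme gene, had 156 and 3995 reads, while Vsig4 had 0 in both libraries and Ms4a7 0 in the control. Their part in the Slc40a1 ratio was not tested.

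In the export list, which includes Slc40a1, 3 of 9 expressed genes passed 2-fold on the higher side and none (0) on the lower. Of all expressed genes, 10.3% and 1.66% did. The median of the export list was 0.33. Cp, which encodes ceruloplasmin, the copper oxidase that loads iron onto transferrin, had 1331 and 10278 reads, 5.46-fold higher (5.16 to 5.79). It overlaps Hps3, which had 1473 and 1780 reads. Heph, a membrane-bound relative of ceruloplasmin, had 289 and 860 reads, 2.10-fold higher (1.84 to 2.41), and overlaps Rpl17-ps8 (26 and 32 reads) and Hsf3 (2 and 8 reads). Hfe, the hemochromatosis gene, had 173 and 540 reads, 2.21-fold higher (1.86 to 2.63). With a pseudocount of 2 CPM, Heph and Hfe were just short of 2-fold, at log2 ratios of 0.94 and 0.92. The hepcidin genes Hamp and Hamp2 had 0 reads in both libraries, and Hjv had 3 reads in the control against 0 in the CKO library.

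**Figure D2:**
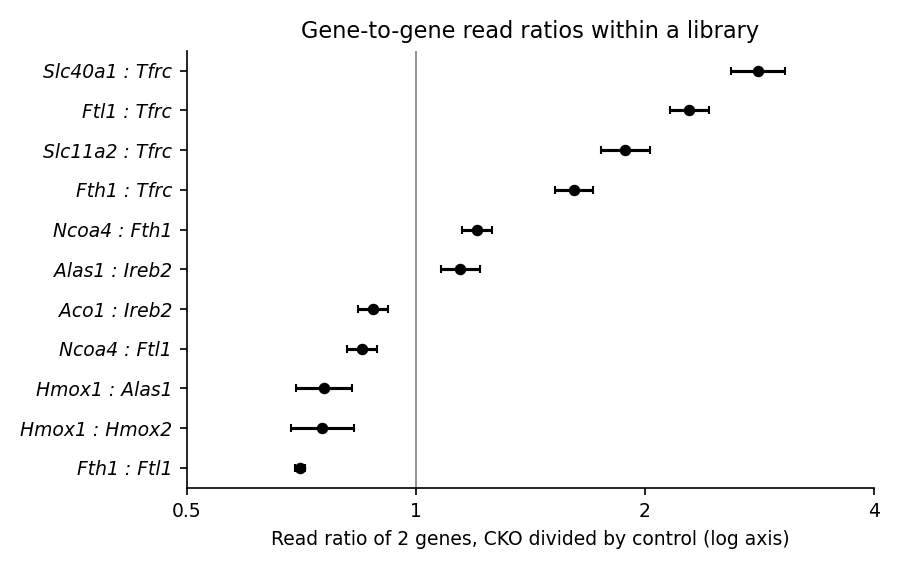
Reads of 1 gene per read of another, CKO divided by control, on a log axis, with 95% counting intervals from the 4 counts, for 11 pairs of iron and heme genes. The ratios with Tfrc below the line are highest, led by Slc40a1 to Tfrc at 2.82, and the heavy to light ferritin ratio is lowest at 0.706.

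Both regulators were lower on the TMM scale. Aco1 (NCBI gene 11428, chromosome 4, 40143265 to 40199009) encodes IRP1, which is the cytosolic aconitase while it holds an iron-sulfur cluster. It had 14351 and 13873 reads, or 477 CPM (469 to 484) in the control against 326 CPM (320 to 331) in the CKO library, a ratio of 0.684 (0.668 to 0.700), and it was below 0 in all 9 settings. Ireb2 (NCBI gene 64602, chromosome 9, 54862658 to 54912534) encodes IRP2, which is degraded when iron is plentiful. It had 4709 and 5179 reads, or 156 and 122 CPM, 1.29-fold lower (1.24 to 1.34), and its log2 ratio of -0.36 turned positive in the authors' TPM alone. Aco1 reads per Ireb2 read went from 3.05 to 2.68, a 1.14-fold lower ratio (1.09 to 1.19).

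A further list held these 2 genes and those for the degradation of IRP2. All 6 genes of it were expressed, and all 6 had log2 ratios below 0 with TMM, where 7456 of all 15129 expressed genes had. None (0) passed 2-fold, where 10.3% of all expressed genes were higher and 1.66% lower. Fbxl5, the iron-sensing adaptor of the ligase, had a log2 ratio of -0.20, Rbx1 one of -0.21 and Skp1a, the most abundant, one of -0.33. The list's median of -0.27 became 0.05 with total counts, against 0.32 for expressed genes as a whole.

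Alas1 (NCBI gene 11655, chromosome 9, 106233455 to 106247954) encodes the rate-limiting first enzyme of heme synthesis outside the red cell lineage. It had 3540 and 4456 reads, or 118 CPM in the control against 105 CPM in the CKO library, 1.12-fold lower (1.07 to 1.17). Its log2 ratio of -0.17 was the one nearest 0 among the lower genes and turned positive with total counts, with total counts lacking the most abundant genes, and in the authors' FPKM and TPM. Other genes of the pathway were further down. Of 15 expressed heme synthesis genes, 1 was at least 2-fold lower and none (0) at least 2-fold higher, where 1.66% and 10.3% of all expressed genes were. With TMM, 13 of the 15 were below 0, where 7456 of all 15129 expressed genes were, and the list's median was -0.38. With a minimum of 10 CPM that median was -0.34, against -0.08 for all genes at that level. Clpx, a mitochondrial unfoldase gene whose product acts on ALAS, had 5760 and 3841 reads, 2.12-fold lower (2.04 to 2.21), or a log2 ratio of -0.76 with total counts. Cpox, which encodes coproporphyrinogen oxidase, was 1.74-fold lower (1.67 to 1.81), and Pgrmc1, the most abundant gene of the list, had a log2 ratio of 0.01.

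Hmox1 (NCBI gene 15368, chromosome 8, 75093618 to 75100593), which encodes heme oxygenase 1, was lower. It had 1521 and 1451 reads, or 50.5 CPM (48.0 to 53.1) in the control against 34.1 CPM (32.3 to 35.9) in the CKO library, 1.48-fold lower (1.38 to 1.59). The log2 ratio of -0.56 was below 0 in all 9 settings and was number 1139 counting up from the lowest. Lcn2, a siderophore-binding marker of tubular injury, had 12 and 1354 reads in the same libraries. Hmox2, the constitutive heme oxygenase gene, had 1696 and 2146 reads, so that Hmox1 reads per Hmox2 read went from 0.897 to 0.676, a 1.33-fold lower ratio (1.20 to 1.46). Against Alas1, Hmox1 was 1.32-fold lower (1.21 to 1.44).

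In the list for heme breakdown, scavenging and transport, 13 genes were expressed, and the median was -0.26. At least 2-fold higher was 1 gene and at least 2-fold lower none (0), where 10.3% and 1.66% of all expressed genes were. The higher one was Hp, the haptoglobin gene, with 0 reads in the control against 45 in the CKO library. The lower limit of the counting interval of its ratio was 8.28, and the interval had no upper limit. Set against a floor of 3 reads in the control library, the ratio was 10.6. Lrp1, which encodes a receptor for heme bound to hemopexin, had 3605 and 8747 reads, 1.72-fold higher (1.65 to 1.78). Abcg2, an exporter gene that was the most abundant of the list, had 12820 and 12282 reads and a log2 ratio of -0.56. In the list for mitochondrial iron and iron-sulfur cluster assembly, all 27 genes were expressed, none (0) passed 2-fold, and the median was -0.33. With TMM, 25 of the 27 were below 0, where 7456 of all 15129 expressed genes were. With a minimum of 10 CPM the median of this mitochondrial list was -0.33, against -0.08 for all genes at that level. Nfs1, the cysteine desulfurase gene, was lowest at -0.60, followed by Iba57 at -0.55 and Fdx1 at -0.54, and the chaperone gene Hspa9 was the most abundant at -0.44.

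The sign of several list medians depended on the scaling. With total counts, where the median of expressed genes was at 0.32, the medians were 0.38 for uptake, 0.19 for storage, 0.65 for export, -0.07 for heme synthesis, 0.05 for heme breakdown, -0.01 for the mitochondrial list and 0.08 for the mRNAs known to carry an IRE. The export median was above that of expressed genes in every setting run, and those of the other lists except uptake were below it. The uptake median had no steady side: it was above with TMM and total counts, but below in the authors' FPKM (0.21 against 0.26) and TPM (0.34 against 0.40), and with a minimum of 10 CPM it was -0.24 against -0.08.

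**Figure D3:**
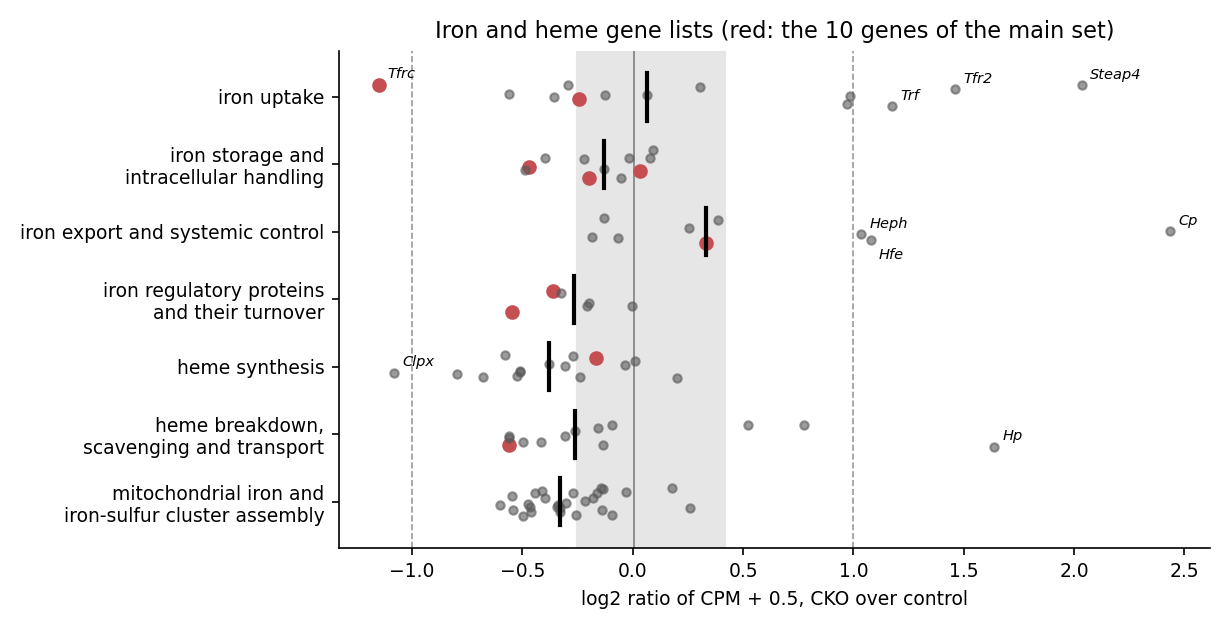
Log2 ratio of CPM + 0.5, CKO over control, for each expressed gene of 7 iron and heme lists (points, with the 10 genes in red), list medians (black bars), and the range from the lower to the upper quartile of all expressed genes (grey band, -0.25 to 0.42, with its median as a line). Dashed lines mark 2-fold. With TMM scaling, genes past 2-fold higher lie in the uptake, export and heme breakdown rows, led by Cp at 2.44, and the mitochondrial row lies mostly below 0.

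Grouped by hairpin, the ratios did not fall on 1 side. With the hairpin in the 5′ UTR, Fth1 had a log2 ratio of -0.47, Ftl1 of 0.03 and Slc40a1 of 0.33. With hairpins in the 3′ UTR, Tfrc had -1.15 and Slc11a2 -0.24. Both genes with 3′ hairpins were below Ftl1 and Slc40a1, while Fth1 lay between Tfrc and Slc11a2. Of the other genes known to carry an IRE, Alas2 held a match with 5 pairs in the 5′ UTR and had a log2 ratio of -0.68. Cdc42bpa held no match under these letters and had a log2 ratio of -0.22. Of the 10 genes on that list, which includes the 5 above, 1 was at least 2-fold lower and none (0) at least 2-fold higher. Of all expressed genes, 1.66% and 10.3% were. The median of the list was -0.23. Protein levels were not measured.

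Per length, in the authors' FPKM, the order of the 10 genes differed little between libraries at the top. In both, Fth1 led (3050 in the control against 2741 in the CKO library), then Ftl1 (1097 and 1398), Aco1 (87.1 and 74.1) and Alas1 (34.3 and 38.0). In the control, Hmox1 at 25.3 and Ncoa4 at 24.6 had overlapping counting intervals, followed by Ireb2 at 21.4, Slc11a2 at 19.8, Tfrc at 15.9 and Slc40a1 at 13.2. In the CKO library, Ncoa4 at 27.5 came next, and Hmox1 at 21.2, Slc11a2 at 20.8, Slc40a1 at 20.7 and Ireb2 at 20.7 could not be told apart by counting error. Tfrc was last there, at 8.83. The gene that was lowest in the control, Slc40a1, thus stood above Tfrc in the CKO library.

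**Figure D4:**
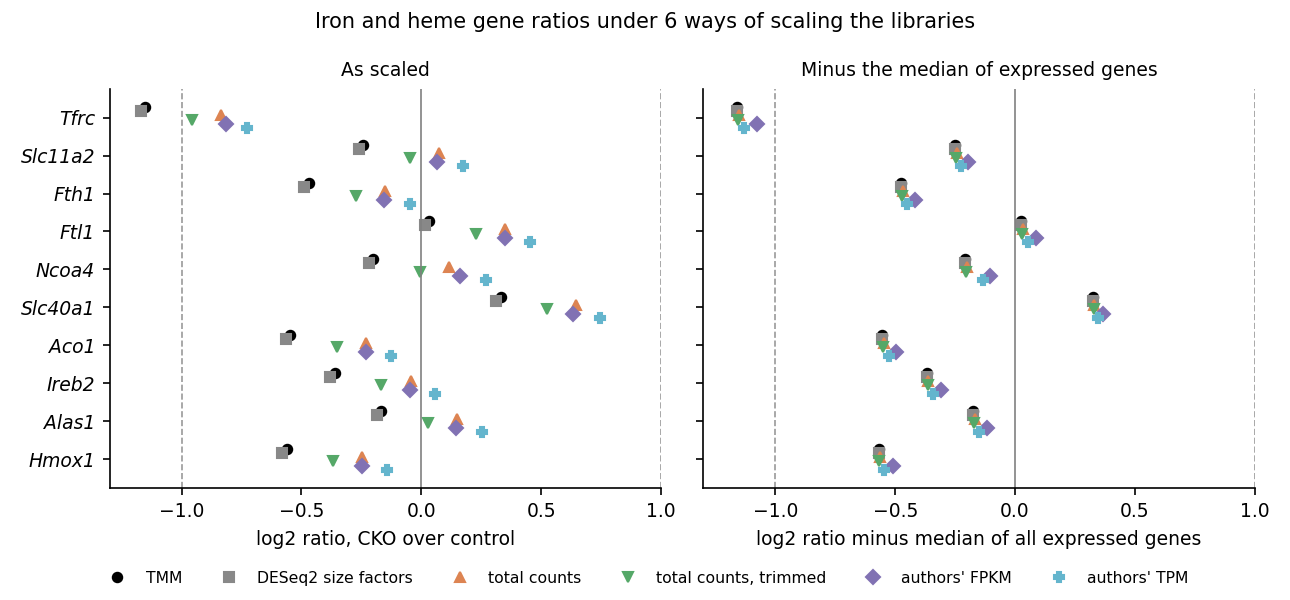
Log2 ratio of each of the 10 genes, CKO over control, under 6 ways of scaling (left), and the same minus the median of all expressed genes in that setting (right). On the left, Slc11a2, Ncoa4, Alas1 and Ireb2 cross 0. On the right each gene keeps its side, with Tfrc between -1.16 and -1.08 and Slc40a1 between 0.32 and 0.37. Subtracting the median removes most of a change in library scaling.

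The sign was the same in all 9 settings for 6 genes, Tfrc, Fth1, Aco1 and Hmox1 on the lower side and Ftl1 and Slc40a1 on the higher side. For Slc11a2, Ncoa4, Alas1 and Ireb2 it differed between settings. Relative to the median of expressed genes, 8 genes were below it and 2 above it in each setting. Subtracting the median removes most of a change in library scaling, so that agreement is no separate check. The authors' normalized table and the settings with pseudocounts of 0.1 and 2 CPM also have the TMM scale or nearly so.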

How the data were processed

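RNA-seq was measured in 2 whole-kidney libraries, 1 control and 1 CKO, made with a stranded mRNA kit per the labels' protocols. For tools, the submitters' processing notes list edgeR, DESeq2, Cufflinks 2.2.1, HTSeq, STAR 2.7.3a and FastQC, and for the genome mm10, with no role or order. Whether strand was used in counting is not given in the sources used here.

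The deposited read counts are whole numbers per NCBI gene, not normalized. The deposited FPKM values are scaled by length and depth, per the file headers. The deposited TPM values, per the file headers, sum to nearly the same total in each library. The authors' normalized signal table, with 19550 genes, held the counts divided by 30.1 in the control against 42.6 in the CKO library, with 100% of values whole within 1e-06 reads.

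Counts were scaled by TMM (edgeR 4.0.16, R 4.3.3; factors 0.896 and 1.12). The rest was done in Python 3.11.15 with scipy 1.17.1. Log2 ratios use a pseudocount of 0.5 CPM, which understates the change of low genes. Intervals are at 95%: exact Poisson for levels, Clopper-Pearson for ratios and shares, and a normal approximation on the log scale for ratios between 2 genes. With 1 library per group no test was run and the fold limit of 2 stands in for a call. In simulated counts over 45777 genes, 100 of 100 genes made 4-fold higher and 96 of 100 made 4-fold lower passed the limit. Of 14464 unchanged genes, 0 did. The simulation drew Poisson counts with no spread between animals and scaled them by total counts, not TMM. It therefore checks the calculation only and cannot give the rate of false calls in these data.

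The 10 genes and the 8 pathway and 5 marker lists were chosen with earlier results of these data known. Besides the 10 genes, the text names in each list the 3 genes of largest absolute log2 ratio, the most abundant by FPKM and any listed at 0 in 1 library; the others were chosen after their values were seen. Some genes of these lists are not reported here by name. Of the list symbols, 1 was matched by a RefSeq synonym and 1 was not matched. Gene coordinates are RefSeq GRCm38.p6.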

Additional observations from a re-analysis of the deposited data

How the results depend on the processing

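The median log2 ratio of the 10 genes, -0.30 with TMM, was 0.0143 with total counts, -0.11 with total counts lacking the mitochondrial and 50 most abundant genes, 0.0103 with the authors' FPKM and 0.12 with their TPM. The median of all expressed genes was 0.32, 0.20, 0.26 and 0.40 in those settings, and the 10 genes' median stayed from 0.25 to 0.31 below it. Under each of the 4, the number of the 10 genes at least 2-fold lower was 0 in place of 1, Tfrc being the gene concerned. With DESeq2 size factors, the authors' normalized table, pseudocounts of 0.1 and 2 CPM, no minimum or one of 10 CPM, and a 1.5-fold limit, that number was 1, and the number at least 2-fold higher was 0 in all settings run. Over all expressed genes, 1552 were at least 2-fold higher and 251 lower with TMM, 2391 and 102 with total counts, 2035 and 142 without the most abundant genes, 1462 and 102 with FPKM, 2613 and 139 with TPM, and 825 and 167 with a pseudocount of 2 CPM. No paired analysis was possible because each group has 1 library, and for the same reason no library could be left out. Each of the 10 genes had at least 1451 reads in each library, and the spread between animals was not measured.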
